A study of Homo sapiens with 8 samples.

Results

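Genes of the cell cycle and of DNA replication were followed for changes in poly(A) site choice after knockdown (KD) of HNRNPC, of PABPC4 or of both. A gene was taken as a member when its symbol carried a family name of this machinery: cyclins (CCNA to CCNL), CDC genes other than CDC42, BUB, ANAPC, Aurora and Polo-like kinases, CENP, CEP and HAUS, MCM and ORC, the replicative polymerases, RFC and RPA, E2F, CKS, NCAP and SMC, topoisomerases and the RAD5 series. By this rule 64 of the 3656 genes in the deposited tables were members, with 157 pairs of poly(A) sites. The rule reads symbols and no measured values, although it was set with earlier results of these data known. It also takes a few genes outside the machinery, among them CCNL1 and CCNL2, cyclins that act in splicing, CDC73 of the PAF1 transcription complex, and CENPBD1 and CENPBD1P1, which Gencode release 44 lists as pseudogenes.

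The cells were of the MDA-MB-231 line, from a human triple-negative breast cancer, in which CRISPR interference (CRISPRi, a catalytically dead Cas9 that represses the gene its guide RNA points to) lowered the targets. All 8 samples carried the CRISPRi machinery and a pair of guides, 2 samples in each of 4 groups. Control cells had non-targeting guides in both places, HNRNPC KD cells a guide against HNRNPC with a non-targeting guide, PABPC4 KD cells a guide against PABPC4 with a non-targeting guide, and double KD cells a guide against each gene. The libraries were made with QuantSeq REV, in which oligo(dT) primes on poly(A) and a read starts at the 3′ end of its transcript. No pair of sites of HNRNPC or PABPC4 was listed, and the depth of the knockdown was not analysed here. The study made these libraries to ask how PABPC4 bears on poly(A) site selection by HNRNPC.

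As background, most human genes carry several poly(A) sites, and the site that is cut decides how long a 3′ UTR the mRNA has and so which binding sites for microRNAs and proteins it keeps. HNRNPC is a nuclear protein that binds runs of U in pre-mRNA, and PABPC4 is a poly(A)-binding protein. Dividing cells make many cell cycle mRNAs in a narrow window and destroy them again, and 3′ UTRs of cyclins are known carriers of stability and translation signals.

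The value analysed was logAPAR, on a natural log scale: how far the KD moved the proximal to distal read ratio from that of control. A negative logAPAR is a shift to the distal site, which lengthens the 3′ UTR where both sites lie in the last exon, and a positive one is a shift to the proximal site. A pair was called at the study's p of 0.01. Sites are named in the tables by a transcript, whose end could be placed on hg38, or by a position in a build that is not named. Such positions are given here as they stand. Among the member pairs, 70 set a position against a distal transcript end and 44 set transcript ends against each other.

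Annotated ends of the members described most closely are shown first, as the last 30 bases up to the annotated end on hg38, with the poly(A) signal hexamer in capitals where the last 40 bases hold one. They are the distal ends of the called pairs of CCNB1 and CDC6, a further end of CCNB1 that is in no called pair, the annotated end of CEP350, whose called pair lies between sites with no sequence here, 3 ends of SMC4, and for comparison those of CCND1 and TOP2A, which were measured well and not called.
CCNB1 ENST00000256442.10, chr5:69178216-69178245, plus strand: tggttAATAAAacaatactcaaatacaaaa
CCNB1 ENST00000508407.5, chr5:69175034-69175063, plus strand: agattctaagagctttaaactttggtctgg
CDC6 ENST00000209728.9, chr17:40304628-40304657, plus strand: agacaaAATAAAttgtgtgtttcaacccca
CEP350 ENST00000367607.8, chr1:180114846-180114875, plus strand: aatctgtaAATAAActgatttataaattaa
SMC4 ENST00000486711.1, chr3:160432414-160432443, plus strand: aAATAAAttaaaggaaaattaccaaatgct
SMC4 ENST00000469762.5, chr3:160433881-160433910, plus strand: gttgTATAAAatacatactccctaaactag
SMC4 ENST00000357388.8, chr3:160434924-160434953, plus strand: gacttttaAATAAAgatttaaagaaagcaa
CCND1 ENST00000227507.3, chr11:69654445-69654474, plus strand: aagtctagaAATAAAactggtaaaacccca
TOP2A ENST00000423485.6, chr17:40388525-40388554, minus strand: tactttAATAAAatgttctaaacattgcaa

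All of these ends but ENST00000508407.5 of CCNB1 held a hexamer, and that end lies inside the coding sequence. The distal ends of CCNB1, CDC6 and CEP350 lie in the 3′ UTR of a protein-coding transcript, with AATAAA starting 25, 24 and 22 nt before the end. Over all members, 80 of 92 transcript names matched Gencode release 44 with the same version. AATAAA or ATTAAA stood in the last 40 nt of 58 of them (72.5%), beside 66.4% of all 4220 matched ends. With 8 rarer variants of the signal also counted (AGTAAA or TATAAA or CATAAA or GATAAA or AATATA or AATACA or AATAGA or ACTAAA), read on the transcript strand only, the share was 82.5% of member ends and 76.7% of all ends. A run of at least 5 U, the kind of sequence that HNRNPC binds, stood in the last 100 nt of 24 member ends (30%) and of 32.7% of all ends. These shares are a description of the annotated ends, without a test. A-rich sequence in the 20 nt after the end (either 6 A in a row or 12 A and more), on which oligo(dT) can prime inside a transcript, followed 9 member ends (11.25%), beside 9.55% of all ends.

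Few member pairs were called. In the double KD 3 of 133 member pairs were past p 0.01, 1 to the distal and 2 to the proximal site, which is 2.26% beside 4.33% of all pairs. CCNB1, the cyclin that drives entry into mitosis with CDK1, went to the distal site, whereas CDC6, the loader of the replicative helicase at origins, went to the proximal site. In HNRNPC KD 1 of 127 pairs was called, again CDC6 toward the proximal site (0.787% beside 2.08% of all pairs). In PABPC4 KD 1 of 117 pairs was called, CEP350, a centrosomal protein that anchors microtubules, toward the proximal site (0.855% beside 0.756%). The other 60 member genes had no pair past p 0.01 in any table. By table, 1 of 55, 1 of 53 and 3 of 57 member genes had a call, beside 107 of 3084, 45 of 3084 and 229 of 3289 of all genes. At an unadjusted p of 0.05 the member counts were 5 in HNRNPC KD, 8 upon PABPC4 KD and 6 in double KD, which is 3.94%, 6.84% and 4.51% beside 6.77%, 4.03% and 9.12% of all pairs. Only CCNB1 in double KD passed an adjusted p of 0.05 among the member pairs, as against 25, 1 and 144 of all pairs in the same order of tables.

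The members' values lay on both sides of 0. Their median logAPAR was 0.0531 in HNRNPC KD, −0.0204 upon PABPC4 KD and −0.0105 in double KD, beside 0.00822, 0.00989 and 0.00853 over all pairs. Negative and positive values were close to even, with 63 and 64 pairs in HNRNPC KD, 61 and 56 upon PABPC4 KD and 67 and 66 in double KD. The limit is the number of reads at the sites. The median Wald standard error of a member pair, recovered from logAPAR and its p, was 0.878, 0.856 and 0.862 in the 3 tables, slightly above the 0.814, 0.806 and 0.820 of all pairs. At that error a pair needs a 9.60-fold, 9.08-fold or 9.20-fold change in its ratio to reach p 0.01. For most members a change of a few fold was thus not detectable.

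**Figure D1:**
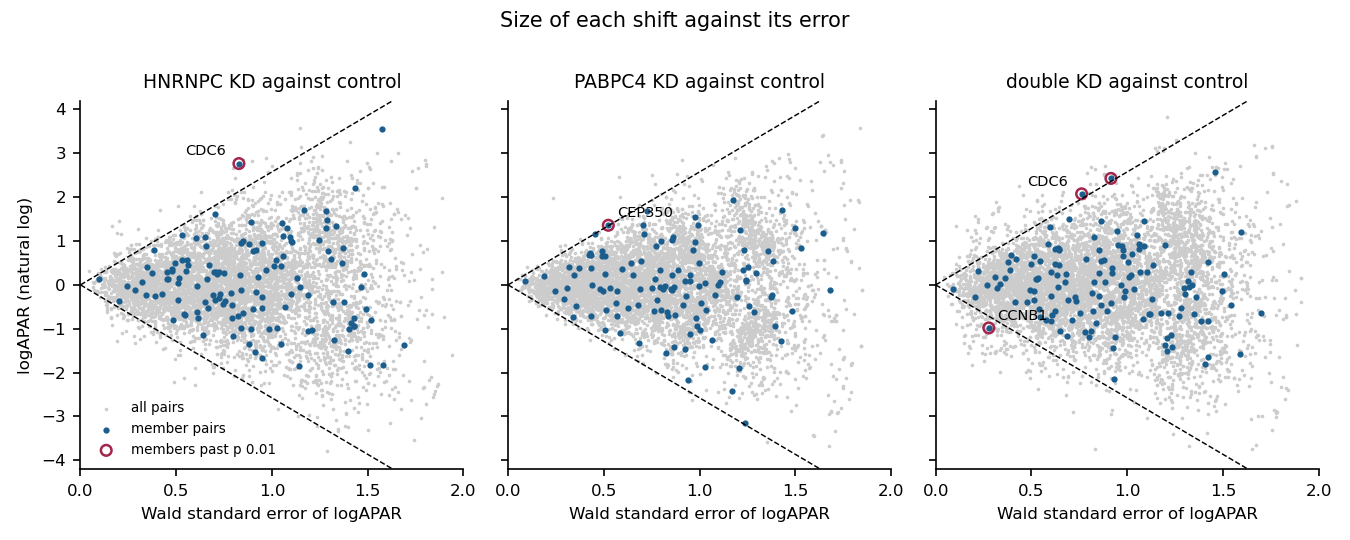
Each point is a pair of poly(A) sites, with logAPAR (natural log, KD against control) on the y axis and its Wald standard error on the x axis, for the 3 tables. All pairs are grey, member pairs blue and member pairs past p 0.01 circled; the dashed lines mark p 0.01. The pairs with a name are CDC6 in HNRNPC KD, CEP350 in PABPC4 KD, and CCNB1 and CDC6 in double KD; CCNB1 has an error of 0.277, and 1 point of the PABPC4 KD table that is no member lies outside the axes.

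The p-values of the tables hold no term for the spread between replicates. At 891 of 893 genes with enough sites, the variances of the pairs could be written as sums of 1/reads over the sites, with a largest allowed misfit of 1% and a median misfit of 0.00537%. The solution gives, for every group and site, the number of normalised reads, both libraries summed. It was found for 21 member genes with 78 sites. In all 4 groups low values were sums of whole reads of 2 libraries, 1 read being worth between 0.722 and 0.962 normalised reads. Of the values below 3, between 96.3% and 97.9% per group were whole to within 0.01. The largest and the smallest worth, both of HNRNPC KD libraries, differed by 1.33 times. Sequencing depth itself is not given. At sites with few reads these worths also show how many reads each library gave, without saying which replicate it is. Shares of reads below carry Wilson 95% intervals, which like the p-values cover counting error only.

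Among the cyclins CCNB1 alone was called, with 1 of 15 pairs in double KD, where 4.33% of all pairs were called. The proximal site, chr5:68473583 in the tables' build, held most reads in every group: 214 in control, 249 in HNRNPC KD, 258 upon PABPC4 KD and 211 in double KD. The distal end, ENST00000256442.10, had 20.4, 22.0 and 26.7 reads in control and the single KDs and 53.8 in double KD. Double KD was highest at the distal site, while at the proximal site it was close to control. In these bulk libraries fewer cells with a transcript and less of it per cell cannot be told apart. The proximal share of the pair was 91.3% in control (interval 87.0 to 94.3%), 91.9% in HNRNPC KD (88.0 to 94.6%), 90.6% upon PABPC4 KD (86.7 to 93.5%) and 79.7% (74.5 to 84.1%) in double KD. Only the interval of double KD lay apart from the others. In the authors' deposited tables logAPAR was 0.0763 in HNRNPC KD (95% interval −0.554 to 0.706, p 0.812), −0.0815 upon PABPC4 KD (−0.686 to 0.523, p 0.791) and −0.981 (−1.52 to −0.437, p 0.000405, adjusted p 0.0220) in double KD.

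The end of CCNB1 inside the coding sequence, 3182 nt upstream of the distal end, had 1.72 reads in control, 0.726 in HNRNPC KD and 0.754 in double KD. No pair with it was called. CCND1, the G1 cyclin, was the deepest member with reconstructed reads. Its annotated end had 1265 reads in control, 1425 in HNRNPC KD, 1473 upon PABPC4 KD and 1623 in double KD, and its next site, at chr11:69468749 in the tables' build, had 33.2, 36.5, 33.9 and 58.8. The logAPAR of this pair was −0.0251 (−0.500 to 0.449), −0.132 (−0.617 to 0.353) and 0.322 (−0.111 to 0.754), none past p 0.01. CCNA2, the S-phase cyclin, gave −0.241, 0.404 and 0.177 in the same order, and its smallest p was 0.201. CCNG2, a cyclin-like protein of growth arrest, had a proximal share of 56.4% in control, 50.0% in HNRNPC KD, 38.6% upon PABPC4 KD and 60.4% in double KD, with a logAPAR of −0.721 in PABPC4 KD (p 0.0323), short of the threshold. The splicing cyclins CCNL1 and CCNL2 lay between −0.649 and 0.135 in the 3 tables.

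CDC6 carried the largest called shift, and it was called in both groups with a guide against HNRNPC. CDC6 loads MCM helicases onto origins in G1. The gene had 3 sites: chr17:38458604 and chr17:38459222 in the tables' build, which lie 618 nt apart, and the annotated end. The first of them had 2.69 reads in control, 12.5 in HNRNPC KD, 4.50 upon PABPC4 KD and 13.6 in double KD. The annotated end went the other way, with 18.9 reads in control, 5.54 in HNRNPC KD, 11.5 upon PABPC4 KD and 12 in double KD. The middle site held most reads and varied least, 46.3, 42.3, 55.2 and 52.6 in that order. For the first against the last site, logAPAR was 2.77 in HNRNPC KD (1.14 to 4.39, p 0.000828), 1.01 upon PABPC4 KD (−0.666 to 2.69, p 0.237) and 2.08 (0.583 to 3.57, p 0.00644) in double KD. The adjusted p-values of the called values were 0.113 and 0.173. The proximal share of this pair was 12.5% in control (4.10 to 32.1%), 69.3% in HNRNPC KD (46.3 to 85.6%), 28.1% upon PABPC4 KD (12.1 to 52.6%) and 53.1% (34.7 to 70.7%) in double KD. Its best-measured pair, the middle against the last site, gave 1.14 (p 0.0305), 0.677 (p 0.110) and 0.585 (p 0.164) in the 3 tables, and the first against the middle site 1.62 (p 0.0211), 0.336 (p 0.673) and 1.49 (p 0.0323), none past p 0.01. Both calls rest on the same 3 control reads at the first site, 1 from one library and 2 from the other, and the tables share that control. In PABPC4 KD the first site had 2 and 3 reads in the libraries and the last one 7 and 6. For HNRNPC KD and double KD, the called groups, the split over the libraries could not be told at either site.

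The other members of origin licensing and firing gave no call, in tables where 2.08%, 0.756% and 4.33% of all pairs were called. MCM6, a helicase subunit, had 0.993 in HNRNPC KD (−0.667 to 2.65), 0.896 upon PABPC4 KD (−0.615 to 2.41) and 0.60 (−0.937 to 2.14) in double KD. The role holds 8 genes (CDC6, CDC7, MCM10, MCM4, MCM6, MCM8, ORC2 and ORC4), not all listed in each table. Its median was 0.766 over 9 pairs of 5 genes in HNRNPC KD, 0.506 over 14 pairs of 7 genes upon PABPC4 KD and 0.573 over 9 pairs of 5 genes in double KD. That was the highest median of any role in each table, and differences between roles were not tested. The cyclins had medians of −0.241, −0.0933 and −0.256 in the same order. For condensin, cohesin and topoisomerase genes they were −0.000629, 0.156 and 0.156. Pairs of 1 gene share sites, and CDC6 gave 3 of the pairs in each table. ORC4 gave several more, some at sites with few reads. Its site at chr2:148691506 in the tables' build had 0.961 reads in HNRNPC KD and 1.76 in control. The licensing and firing median in double KD was the value of 1 ORC4 pair, 0.573 (−1.15 to 2.30). The distal site of that pair had 2.47 reads in double KD and 3.31 in control. Of the polymerase, clamp loader and RPA genes that the rule names only RFC5, of the clamp loader, and POLA2, of DNA polymerase alpha, were listed, each in 2 of the 3 tables. RFC5 had −0.612 upon PABPC4 KD and 0.707 in double KD, and POLA2 had −0.398 in HNRNPC KD and −1.41 in double KD, all with intervals that span 0. E2F3, a transcription factor that turns on S-phase genes and the only E2F listed, had 0.300, −0.0204 and 0.461 in HNRNPC KD, PABPC4 KD and double KD, with no p below 0.476.

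**Figure D2:**
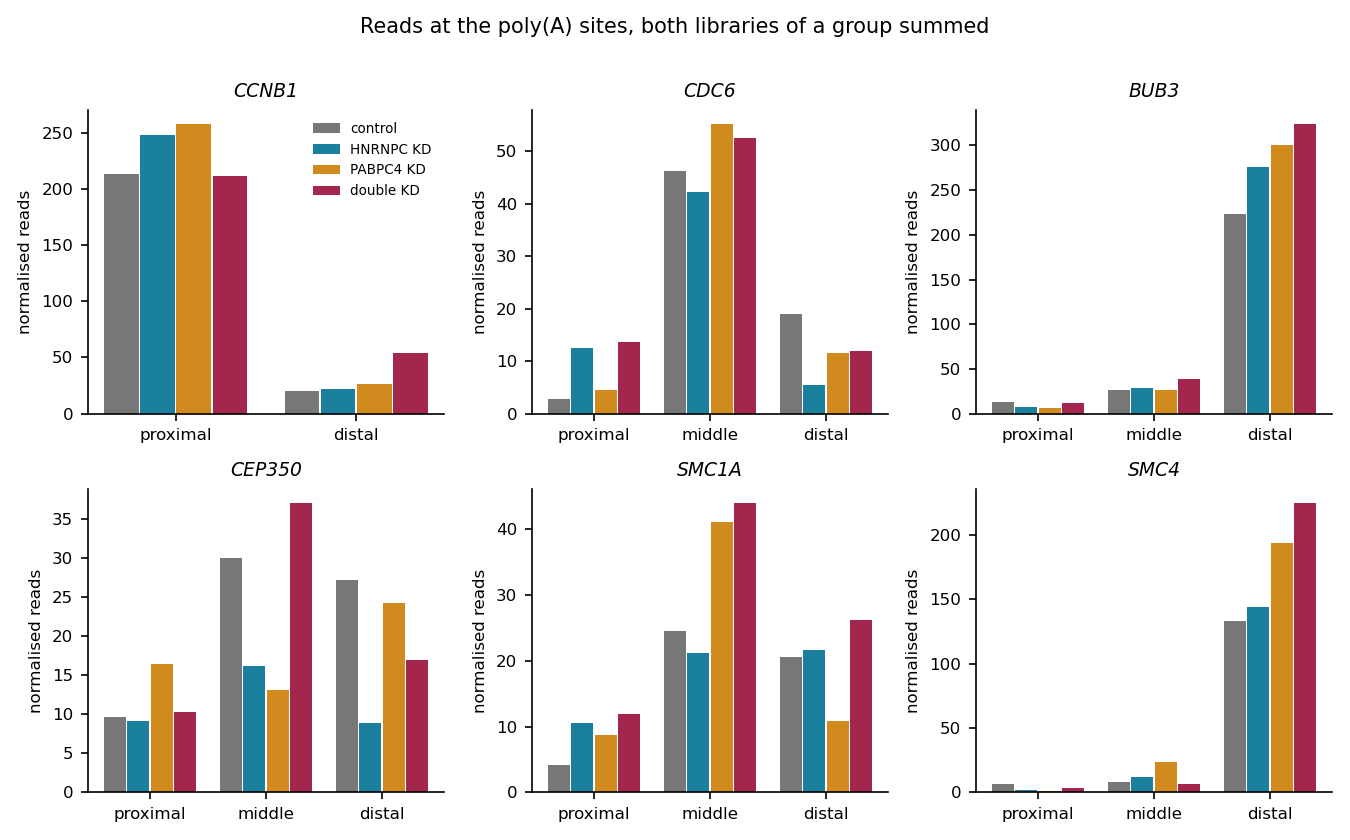
Bars give the normalised reads of a poly(A) site (y axis, linear from 0, both libraries of a group summed, without replicate error) for 6 member genes, with sites in transcript order on the x axis and groups by colour; for CCNB1 2 sites and for BUB3, SMC1A and SMC4 only 3 of the sites are drawn. The distal site of CCNB1 stands at 53.8 reads in double KD and at 20.4 to 26.7 in the other groups, and the first site of CDC6 at 12.5 and 13.6 reads in HNRNPC KD and double KD and at 2.69 in control.

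Centrosome and spindle genes were the largest role, with 15 genes and 45 pairs. CEP350 had 3 sites. The first, chr1:180080329 in the tables' build, had 9.63 reads in control, 9.14 in HNRNPC KD, 16.5 upon PABPC4 KD and 10.3 in double KD. The second, named by ENST00000429851.5 and not matched in Gencode release 44, had 29.9, 16.1, 13.1 and 37.0. PABPC4 KD was thus the highest group at the first site and the lowest at the second. The share of the first site in the pair was 24.3% in control (13.6 to 39.6%), 36.2% in HNRNPC KD (20.5 to 55.6%), 55.6% upon PABPC4 KD (38.1 to 71.8%) and 21.7% (12.4 to 35.4%) in double KD. LogAPAR was 1.36 in PABPC4 KD (0.334 to 2.39, p 0.00940, adjusted p 0.951), 0.567 in HNRNPC KD (p 0.308) and −0.147 in double KD (p 0.773). In PABPC4 KD the libraries gave 13 and 6 reads at the first site and 9 and 6 at the second. The annotated end of CEP350 had 27.1 reads in control, 8.90 in HNRNPC KD, 24.2 upon PABPC4 KD and 17.0 in double KD. Against that end, the second site gave 0.496 in HNRNPC KD, −0.708 upon PABPC4 KD and 0.682 in double KD, none past p 0.01.

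The best-measured gene of this role was CEP41, a ciliary protein, whose sites 916 nt apart gave 0.401 (−0.277 to 1.08), −0.482 (−1.17 to 0.211) and 0.0256 (−0.636 to 0.687). The 38 pairs of the role listed in HNRNPC KD ranged from −1.83 to 1.69, and the 31 listed in PABPC4 KD from −1.90 to 1.94. The highest member value in double KD was that of CEP290, a gatekeeper of the cilium, whose 2.56 had a p of 0.0789.

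Among condensin, cohesin and topoisomerase genes none was called, although this role held the pair with the smallest error. It had 30, 28 and 30 pairs in the 3 tables, where 2.08%, 0.756% and 4.33% of all pairs were called. TOP2A, the topoisomerase that untangles sister chromatids, gave 0.124 in HNRNPC KD (−0.0632 to 0.312), 0.0954 upon PABPC4 KD (−0.0795 to 0.270) and −0.0894 (−0.266 to 0.0876) in double KD. From its error each of its sites had more than 109 normalised reads in control and in each KD. The p-values were 0.194, 0.285 and 0.322. SMC1A, a core subunit of cohesin, came close to the threshold in PABPC4 KD. Its site at chrX:53404862 in the tables' build had 24.6 reads in control, 21.2 in HNRNPC KD, 41.1 upon PABPC4 KD and 43.9 in double KD. Its annotated end had 20.5, 21.7, 10.9 and 26.1. The share of the first of these was 54.5% in control (40.2 to 68.1%), 49.4% in HNRNPC KD (35.1 to 63.8%), 79.1% upon PABPC4 KD (66.2 to 87.9%) and 62.7% (51.0 to 73.1%) in double KD, for a logAPAR in PABPC4 KD of 1.15 (0.261 to 2.04, p 0.0112).

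SMC4, a core subunit of condensin, had 5 sites, of which 3 are shown above. The end ENST00000486711.1 of a retained-intron transcript had 6.43 reads in control, 2.17 in HNRNPC KD, 0.831 upon PABPC4 KD and 3.34 in double KD. The next end ENST00000469762.5, in the 3′ UTR of a protein-coding transcript, had 7.76, 12, 23.6 and 6.32. The main end ENST00000357388.8, 1043 nt further on, had 133, 144, 193 and 225. PABPC4 KD was lowest at the retained-intron end and highest at the one after it. For the first of these ends against the second, logAPAR was −1.53 in HNRNPC KD (p 0.0939), −3.16 upon PABPC4 KD (−5.58 to −0.732, p 0.0107) and −0.448 (p 0.603) in double KD. The retained-intron end rests on 1 read in 1 library in PABPC4 KD, and in control the libraries had 1 and 6. TOP3A, a topoisomerase that dissolves recombination intermediates, had an end ENST00000489131.1 with 15.7 reads in control, 13.7 in HNRNPC KD, 17.3 upon PABPC4 KD and 4.47 in double KD. Against the end before it, logAPAR in double KD was 1.33 (0.156 to 2.50, p 0.0263), short of the threshold. The best-measured pair of TOP3A, its outermost ends, gave 0.277, 0.389 and 0.516, with intervals that span 0. The end ENST00000489131.1 has no signal hexamer, and 14 of the 20 bases after it are A; whether priming inside the transcript plays a part was not tested.

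The genes of the mitotic checkpoint and the anaphase-promoting complex gave no call in any table. With the CDC25 genes counted, these were 13, 16 and 14 pairs, in tables where 2.08%, 0.756% and 4.33% of all pairs were called. BUB3, a sensor of unattached kinetochores, had its main site at chr10:124924930 in the tables' build, with 224 reads in control, 276 in HNRNPC KD, 300 upon PABPC4 KD and 324 in double KD. The site 1520 nt before it had 12.4, 6.82, 5.94 and 12.1. Its logAPAR was −0.805, −1.03 and −0.395 in the 3 tables, with the smallest p, 0.0426, in PABPC4 KD. The better measured site 665 nt before the main one gave −0.117 (−0.674 to 0.440), −0.313 (−0.883 to 0.257) and 0.00274 (−0.522 to 0.528). ANAPC7, a subunit of the anaphase-promoting complex, had 1.68 upon PABPC4 KD (0.258 to 3.09, p 0.0205) and 0.162 and −0.121 in HNRNPC KD and double KD. CDC27, another subunit, lay between −1.44 and 1.12 over its 6 pairs, with 0.116 as the smallest p.

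Centromere and kinetochore genes were also without a call, over only 6, 6 and 8 pairs in the 3 tables. Of all pairs 2.08%, 0.756% and 4.33% were called there. CENPP, of the inner kinetochore, had −0.981 in HNRNPC KD, −2.16 upon PABPC4 KD (p 0.0216) and −1.2 in double KD. CENPI, of the same network, had −0.400, −0.135 and −0.604. CENPBD1, which is named for its DNA-binding domain and listed as a pseudogene, had −0.627, −1.33 (−2.66 to 0.0108) and −0.686. Other genes of the role had values above 0 in each table, the highest being 0.944, 0.12 and 1.22. The median of the role was 0.0452 in HNRNPC KD, −0.269 upon PABPC4 KD and −0.645 in double KD. The pseudogenes CENPBD1 and CENPBD1P1 are counted in the role, and had −0.686 and −0.699 in double KD, near that median. RAD54L2, a chromatin remodeller related to RAD54, was grouped with the break repair genes by its symbol only. It had 0.789 in HNRNPC KD (0.0401 to 1.54, p 0.0389), 0.224 upon PABPC4 KD and −0.0660 in double KD. Its proximal end is that of a retained-intron transcript followed by 20 A in 20 bases. Outside these roles, CDC34, a ubiquitin-conjugating enzyme, was measured well and gave −0.364 (−0.762 to 0.0344), 0.208 (−0.156 to 0.572) and −0.287 (−0.685 to 0.112). CDC37, a cochaperone of HSP90 for kinases, gave 0.295, 0.682 and −0.350.

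**Figure D3:**
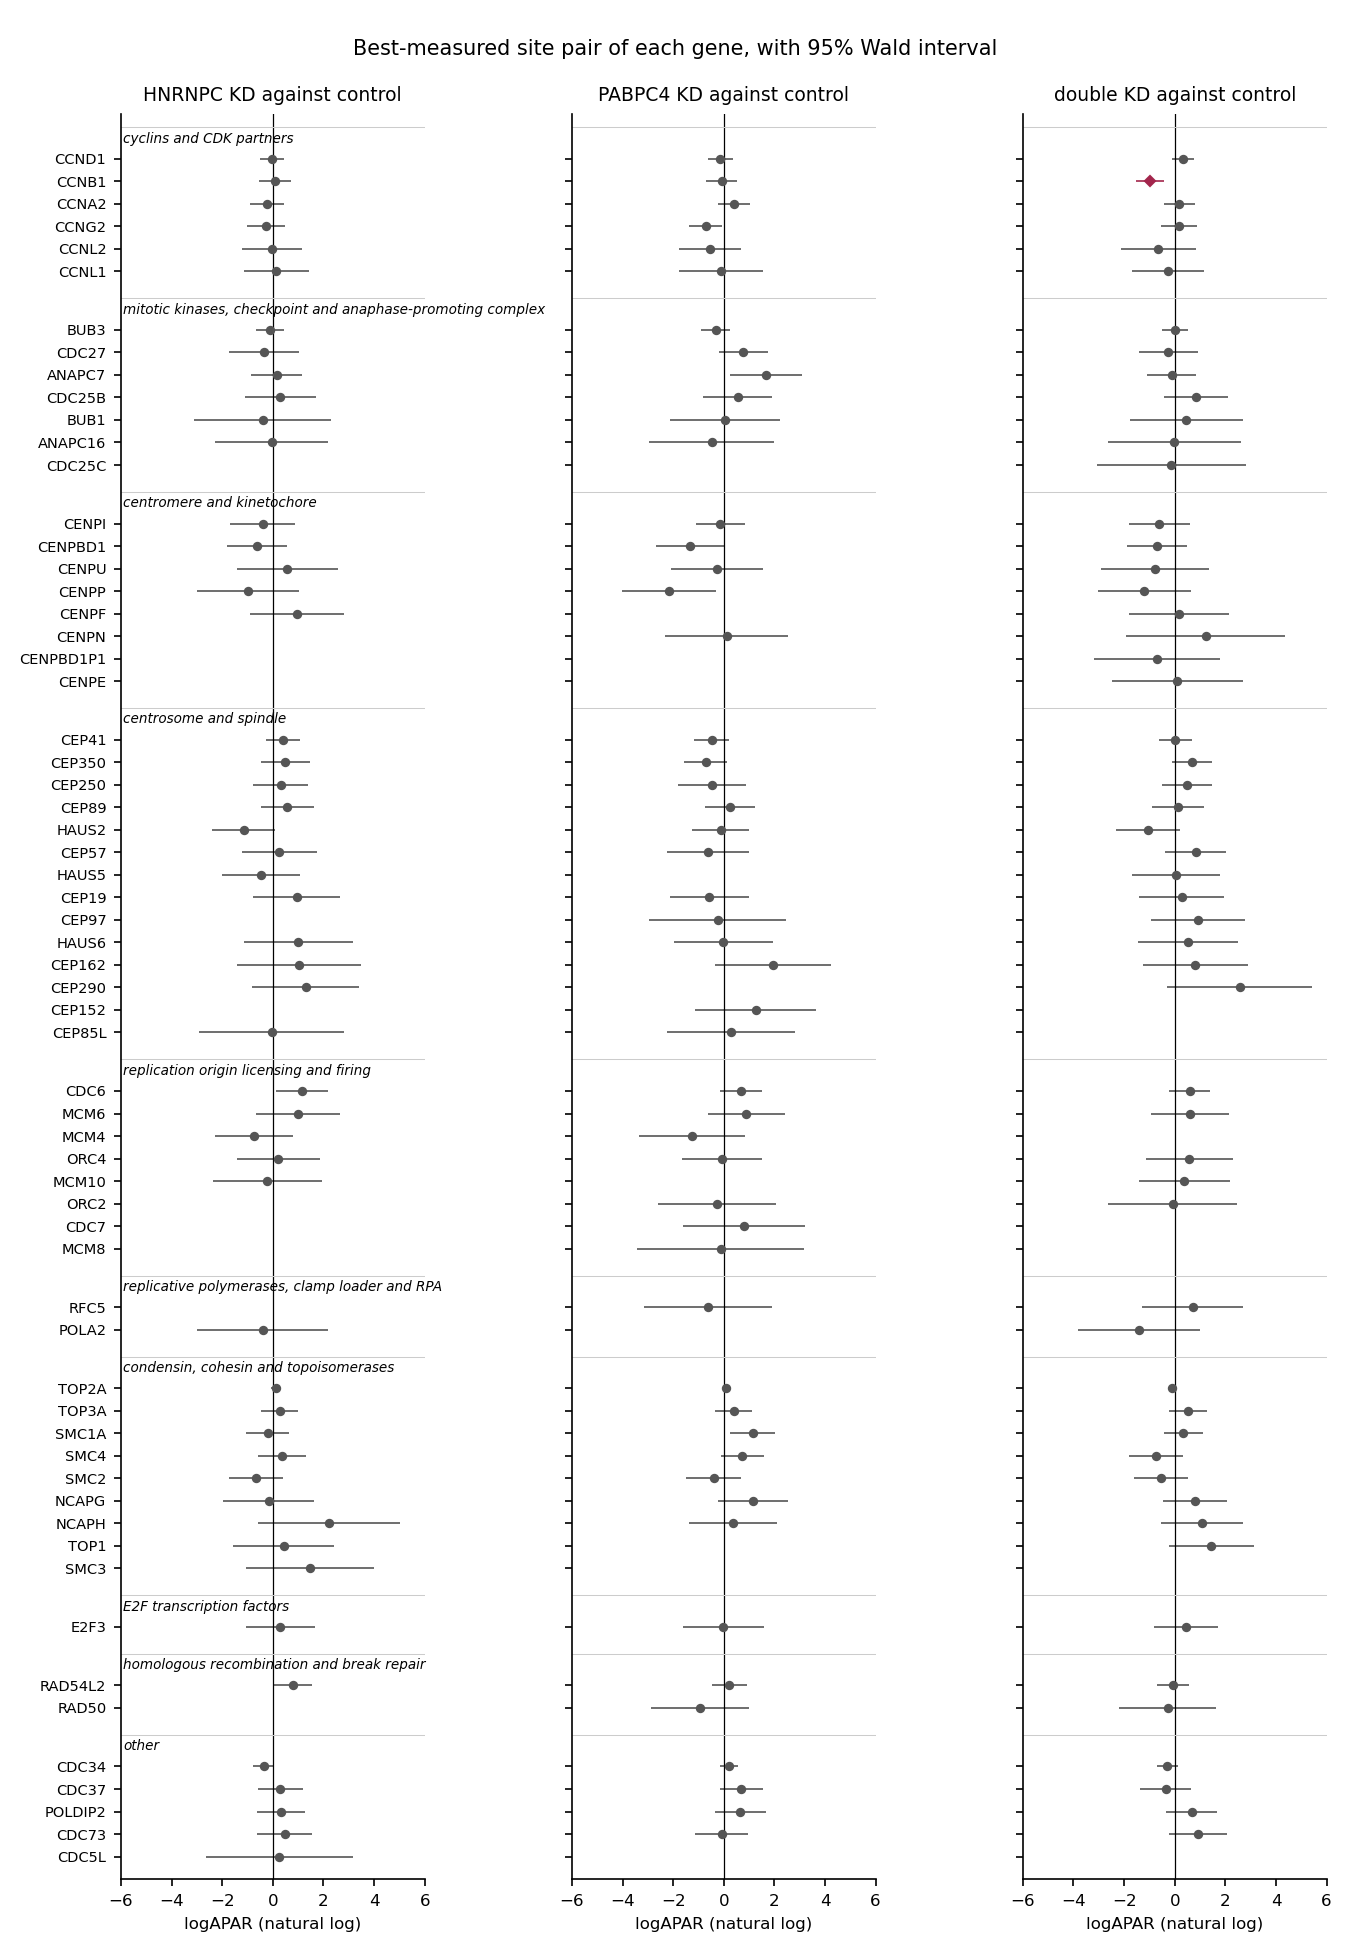
For 62 of the 64 genes, the pair of sites with the smallest error in any table is drawn with its logAPAR (x axis, natural log, KD against control; below 0 is toward the distal site) and 95% Wald interval, grouped by role, in the 3 tables; a gap is a pair not listed there. Values past p 0.01 are red diamonds: among these best-measured pairs that is CCNB1 in double KD, since the called pairs of CDC6 and CEP350 are not the best-measured pair of their gene.

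The KD groups were then compared with each other, in which the control cancels. The difference double KD minus HNRNPC KD asks what PABPC4 KD adds in HNRNPC KD cells, and double KD minus PABPC4 KD the converse. With the Wald errors of both tables added, which overstates the error because the shared control is counted as noise, none of 110 member pairs passed p 0.01 in the first difference and none of 102 in the second, beside 1.43% and 1.72% of all pairs. At p 0.05 there was 1 member pair in the first difference (0.909% beside 2.96% of all pairs). In the second there were 5 (4.90% beside 4.38% of all pairs). The sum of both single effects was compared with the double KD as well, and none of 94 member pairs departed at p 0.01, beside 1.04% of all pairs. At p 0.05, 3 did (3.19% beside 3.37% of all pairs).

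CCNB1 was the member closest to the threshold in the first difference. It was lower in double KD than in HNRNPC KD by 1.06 in logAPAR (−1.89 to −0.225, p 0.0128), and lower than in PABPC4 KD by 0.899 (−1.71 to −0.0867, p 0.0301). Errors computed from the reconstructed reads leave the control out of these differences, and with them both were past the threshold (p 8.93e-05 and 0.000403, adjusted p 0.00842 and 0.0226). The departure of CCNB1 from that sum was −0.976, with a p of 0.0629 by the added errors and of 0.0172 by the reads. By the reads, 1 of 81 member pairs passed p 0.01 in double KD minus HNRNPC KD, that of CCNB1. Of all 3208 pairs with reconstructed reads, a smaller set than above, 3.37% did. In double KD minus PABPC4 KD 5 of 75 pairs passed (4.99% of all 3246 pairs with reconstructed reads), of CCNB1, CEP350 and SMC4.

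For CEP350 the first against the second site was lower in double KD than in PABPC4 KD by 1.51 (−2.94 to −0.0725, p 0.0395), and the second against the annotated end was higher by 1.39 (0.241 to 2.54, p 0.0178). By the reads the p-values were 0.00319 and 0.00206, adjusted 0.101 and 0.0795. For SMC4 the end ENST00000469762.5 against the main end was lower in double KD by 1.47 (p 0.0349, by the reads 0.00139, adjusted 0.0613). CDC6, called in HNRNPC KD and in double KD, differed between them by −0.690 (−2.89 to 1.51, p 0.540) and between double KD and PABPC4 KD by 1.06 (−1.18 to 3.31, p 0.353). These intervals are wide, and a difference of several fold either way was not detectable.

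**Figure D4:**
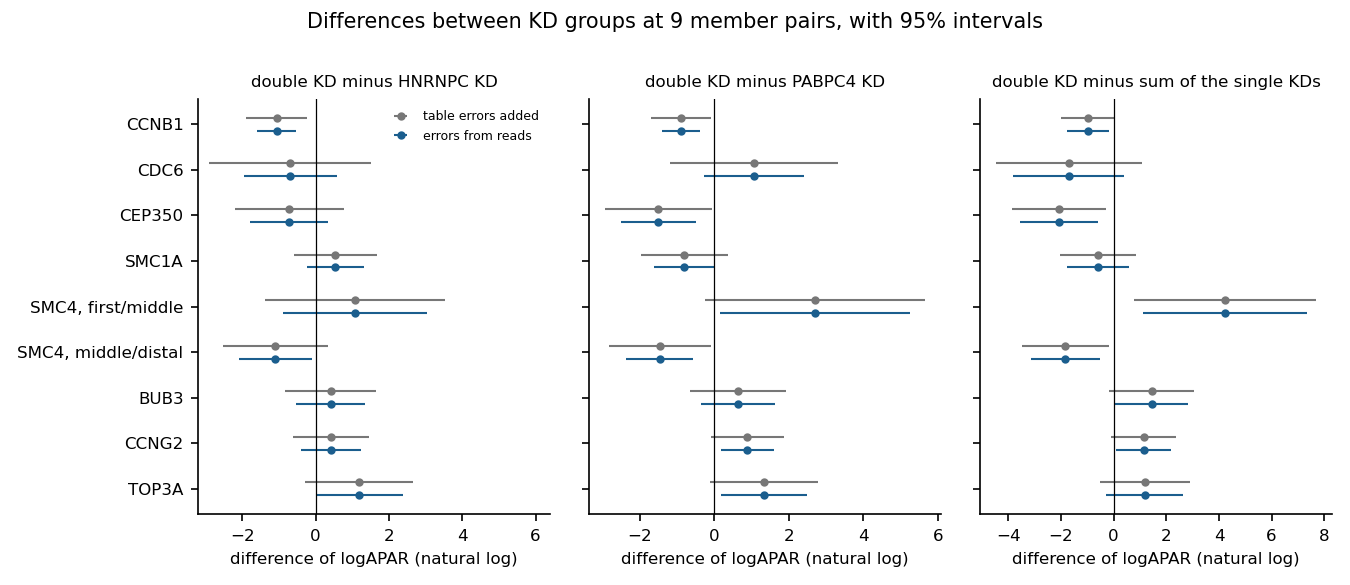
Differences of logAPAR (x axis, natural log) at 9 member pairs, chosen after their values were seen, for double KD minus HNRNPC KD, double KD minus PABPC4 KD and double KD minus the sum of the single KDs. Points are the difference and bars the 95% interval, grey with the Wald errors of the tables added and blue with errors from reconstructed reads. CCNB1 lies below 0 in both differences with either error, at −1.06 and −0.899.

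For context, 102 further genes of the cell cycle that the rule does not name (CDKs and their inhibitors, replication enzymes, kinetochore and spindle proteins, cohesin regulators, E2F partners) were listed. Of these, 39 had a pair in a table. This list, too, was drawn up with earlier results of these data known. In HNRNPC KD 2 of 55 pairs were called (3.64% beside 2.08% of all pairs), 1 in each direction, and the distal one was of BIRC5. In PABPC4 KD 0 of 69 were (0.756% of all pairs), and 1 at an unadjusted p of 0.05. In double KD 4 of 72 were (5.56% beside 4.33%), 3 of them to the distal site; the 3 include 2 pairs of BIRC5 with the same distal end. BIRC5 (survivin), which guides Aurora B in mitosis, shifted to the distal site in HNRNPC KD (−1.34, p 3.13e-06, adjusted p 0.00184) and in double KD (−1.10, p 3.96e-05, adjusted p 0.00333), with −0.446 in PABPC4 KD (p 0.122). Its main site had 230 reads in control, 117 in HNRNPC KD, 232 upon PABPC4 KD and 206 in double KD, and its annotated end 22.0, 42.3, 34.6 and 59.1. TFDP2, the partner that E2F proteins need to bind DNA, went distal in double KD (−2.37, p 1.02e-05, adjusted p 0.00110) and had 0.131 and 0.418 in the single KDs. SPC25, of the kinetochore NDC80 complex, went to the proximal site in double KD (1.23, p 0.00587, adjusted p 0.165), and MDC1, a mediator of the DNA damage checkpoint, in HNRNPC KD (1.09, p 0.00677, adjusted p 0.402).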

How the data were processed

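Per the labels and the study's methods, the authors matched QuantSeq REV reads with Salmon 0.14.1 to unique Gencode transcript ends and passed normalised abundances to APAlog, a multinomial logistic regression over the sites of a gene. The submitters' processing notes also name UMI-tools and hg38. The deposited values are logAPAR (natural log), a raw p-value and a corrected p-value for each pair in 3 comparisons with the same control. The files hold only these comparison columns, used as they stand; 0 columns hold values per library. The table whose name carries both targets was assigned to PABPC4 KD by elimination.

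Members and gene lists were chosen with earlier results of these data known. Wald standard errors were recovered from logAPAR and p. Differences between tables were tested over all shared pairs (two-sided Wald test, Benjamini-Hochberg adjustment). Reads per site were solved from logAPAR and the variances, after tests on simulated data; a split over the 2 libraries is given where it was within 0.006 of the value and no other was within 0.025. Named were genes with a pair past p 0.01, the 2 best-measured genes of each role in double KD, and at most 4 other cell cycle genes past p 0.01; CCNA2, CCNG2, CCNL1, CCNL2, CDC27, CENPP, CEP290, SMC1A, SMC4 and second pairs were added after their values were seen. Some items are not reported here, though the counts over all members include them. Ends were placed with Gencode release 44 on hg38. Of 75 position-named member sites 12 lay inside their gene on hg38, so these were neither converted nor used for sequence. Python 3.11.15, numpy 2.4.6, scipy 1.17.1 and pandas 2.3.3 were used.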

Additional observations from a re-analysis of the deposited data

Results flagged for a closer look

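At 3 member pairs the effect in double KD departed, at p 0.01, from the added effects of HNRNPC KD and PABPC4 KD when the errors came from reconstructed reads; with the errors of the tables added, none did. For CEP350, the site at chr1:180080329 in the tables' build against ENST00000429851.5 departed by −2.07 (interval from the reads −3.55 to −0.594, p 0.00601, adjusted p 0.356; added errors, p 0.0240). For SMC4, ENST00000469762.5 against ENST00000357388.8 departed by −1.83 (−3.12 to −0.535, p 0.00563, adjusted p 0.356; added errors, p 0.0298), and ENST00000486711.1 against ENST00000469762.5 by 4.23 (1.11 to 7.35, p 0.00780, adjusted p 0.374; added errors, p 0.0162). The last value rests on 1 read at ENST00000486711.1 in PABPC4 KD. These 3 pairs were 4.23% of 71 member pairs tested this way, beside 2.32% of all 2926 pairs with reconstructed reads. With 2 samples in each group, no group was large enough to look for a sample that stands apart.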

How the results depend on the processing

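No paired analysis was possible because single libraries have no values in these tables; leaving out a replicate was not possible for the same reason. Of 52 values under alternative settings, 34 stayed as they were or close, 7 named pairs fell below a stricter threshold, 11 counts or shares moved, and no tested value changed direction. At an adjusted p of 0.05 the calls were 0 in HNRNPC KD, 0 upon PABPC4 KD and 1 in double KD. At p 0.001 they were 1, 0 and 1, of CDC6 in HNRNPC KD and CCNB1 in double KD. With only the outermost sites of each gene they were 1, 0 and 1, of 55, 53 and 57 pairs. Both of the latter calls were of CDC6, because the called pair of CCNB1 does not join its outermost sites. With errors from reconstructed reads 5 pairs passed in double KD minus PABPC4 KD, 1 in double KD minus HNRNPC KD and 3 in the departure from the sum, beside 0 in each with the errors of the tables added; for the first 2 the errors from reads leave out the shared control. The share of member ends with a U run was 2.50% when at least 8 U were asked for, beside 30% with 5; over all ends it was 2.68% and 32.7%. An absolute logAPAR limit of 5, pairs present in all 3 tables and leaving out genes without a role moved none of the 3 counts of calls against control. The member median in HNRNPC KD was 0.162 with the outermost sites and 0.130 among pairs present in all 3 tables, beside 0.0531, and in double KD it was 0.0445 among the latter, beside −0.0105, a change of sign in a value that was not tested. A stricter misfit of 0.001, chosen after seeing the data, left 18 of 21 genes with reads. What the number of reads limits most is the many members with an error near the median. The p-values cover counting error and not the spread between replicates, and oligo(dT) priming inside transcripts was not tested.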
